A study of Mus musculus with 68 samples.

Results

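Lactotransferrin (Ltf), complement component 3 (C3), lipocalin 2 (Lcn2), mucin 1 (Muc1), mucin 4 (Muc4), glutathione peroxidase 2 (Gpx2) and lysozyme 1 (Lyz1) were grouped as late oestrogen-induced secretory products of the uterus, and their transcript levels were followed over the 25 groups of a mouse microarray series. A member was read from a probe set annotated to that symbol and to no other gene. Of the 7 named members, 6 were measured in this way, each by 1 probe set, among 30142 genes with such a probe set; C3 was not analysed here. The values were log2 intensities, so a difference of 1 is a doubling of intensity, and levels of different members were not set against each other because each probe set has its own brightness. The group name was only partly borne out by the data. Lyz1 was not higher after oestrogen in any group of mice with an intact receptor by the test used, Gpx2 encodes an intracellular enzyme, and Muc1 and Muc4 encode membrane-anchored mucins whose outer part can be shed.

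Oestradiol (E2) acts in the rodent uterus in an early phase of transcription and fluid uptake and in a late phase, in which the epithelium proliferates and turns on secretory genes. Oestrogen receptor alpha, encoded by Esr1, binds DNA as a dimer, and insulin-like growth factor 1 (IGF1) acts through its own receptor tyrosine kinase. Lactotransferrin binds iron and is a classical oestrogen-responsive product of the mouse uterine epithelium. Lipocalin 2 captures the iron carriers of bacteria, and lysozymes cut bacterial cell walls. Muc1 and Muc4 form the sugar-rich coat of the luminal surface, Muc4 is also a partner of the ErbB2 receptor, and Gpx2 reduces hydroperoxides with glutathione.

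The 250 bases before the annotated start of each measured member are shown because the study asks what depends on the receptor, and the core of the receptor's binding site and the TATA box were searched there. Capitals mark the core GGTCA, read on either strand, and the TATA box TATAAA; no other letters are marked. The sequences are those of RefSeq on the build GRCm38.p6, written 5′ to 3′ on the strand of the gene.
Ltf: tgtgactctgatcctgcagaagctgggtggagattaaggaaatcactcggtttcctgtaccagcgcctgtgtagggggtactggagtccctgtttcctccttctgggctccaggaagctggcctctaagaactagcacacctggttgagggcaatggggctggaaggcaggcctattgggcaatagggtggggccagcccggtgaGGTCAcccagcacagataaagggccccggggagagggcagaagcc
Lcn2: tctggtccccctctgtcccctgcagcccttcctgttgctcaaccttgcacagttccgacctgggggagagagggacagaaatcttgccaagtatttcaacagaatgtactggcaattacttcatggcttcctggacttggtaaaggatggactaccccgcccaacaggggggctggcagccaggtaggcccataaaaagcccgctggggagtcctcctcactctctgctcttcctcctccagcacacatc
Lyz1: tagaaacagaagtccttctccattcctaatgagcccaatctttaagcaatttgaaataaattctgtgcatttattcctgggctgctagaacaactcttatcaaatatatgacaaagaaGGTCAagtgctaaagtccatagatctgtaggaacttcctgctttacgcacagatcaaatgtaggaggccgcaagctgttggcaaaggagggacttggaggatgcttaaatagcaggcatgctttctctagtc
Muc1: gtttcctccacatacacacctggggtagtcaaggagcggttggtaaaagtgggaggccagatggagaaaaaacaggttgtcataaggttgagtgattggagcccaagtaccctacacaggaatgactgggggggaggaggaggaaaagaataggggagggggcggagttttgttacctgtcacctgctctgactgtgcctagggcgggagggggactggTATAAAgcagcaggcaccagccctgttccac
Muc4: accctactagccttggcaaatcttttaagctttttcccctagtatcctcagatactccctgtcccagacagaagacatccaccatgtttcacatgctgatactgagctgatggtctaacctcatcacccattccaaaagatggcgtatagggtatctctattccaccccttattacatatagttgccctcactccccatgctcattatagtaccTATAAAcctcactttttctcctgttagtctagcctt
Gpx2: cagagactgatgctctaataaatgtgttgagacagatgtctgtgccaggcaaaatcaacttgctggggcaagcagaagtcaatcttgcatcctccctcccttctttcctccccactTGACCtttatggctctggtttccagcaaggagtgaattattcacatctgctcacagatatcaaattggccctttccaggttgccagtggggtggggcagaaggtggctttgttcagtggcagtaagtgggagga
They lie at chr9:111019042-111019291 on the plus strand for Ltf, chr2:32387740-32387989 on the minus strand for Lcn2, chr10:117292869-117293118 on the minus strand for Lyz1, chr3:89228806-89229055 on the plus strand for Muc1, chr16:32735636-32735885 on the plus strand for Muc4 and chr12:76795555-76795804 on the minus strand for Gpx2. All 6 stretches are the flank directly upstream of the gene and hold no transcribed base. The core GGTCA stood at bases -45 to -41 of Ltf and -132 to -128 of Lyz1, and on the opposite strand at bases -134 to -130 of Gpx2, counted from the start of the gene; 35.2% of 32851 promoters of the same length hold it on either strand. The sequence TATAAA stood at bases -31 to -26 of Muc1 and -36 to -31 of Muc4, and 12.4% of promoters hold it on either strand. The full oestrogen response element, the core GGTCA followed after 3 free bases by its reverse complement TGACC, was in none of the 6 stretches, also with up to 2 mismatches in its 10 fixed letters; 0.0639% of all promoters hold it exactly and 9.08% with up to 2 mismatches. The letters TGACNNNGC, a core of the antioxidant response element, stood at bases -61 to -53 of Muc1, with 10.2% of promoters holding them on either strand. The AP-1 motif TGANTCA was in none of the 6, against 6.75% of promoters. These matches describe the letters of short windows only.

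All mice were ovariectomized, and RNA came from whole uterus. The 68 arrays covered 3 experiments: wild-type C57Bl6 mice (14 arrays), Ex3aERKO mice, which are Esr1-null, with their wild-type littermates (11 and 14 arrays), and ERaUtcKO mice (Esr1f/f;PgrCre+), in which floxed Esr1 is removed by Cre under control of the progesterone receptor gene, with wild-type littermates (15 and 14 arrays). The strain of all mice was given as C57Bl6, and their ages were not given. In each line mice received saline vehicle and were collected at 24 h, 250 ng of E2 for 2 h or 24 h, or IGF1 for 2 h or 24 h; IGF1 was given as a 50 ug injection or by an osmotic pump loaded at 0.5 mg/ml, and the labels do not tie a route to a mouse. Vehicle was taken at 24 h alone, so values at 2 h differ from it in time as well as in treatment, and the treatments of a line share its vehicle arrays. A group held 3 arrays in 18 cases and 2 arrays in 7, where the submitters had left out 1 of 3 arrays as an outlier, so the spread in those 7 may be understated. Nothing in the labels says that arrays of a group came from separate mice, so p-values measure the spread between these samples.

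The arrays of the 3 experiments had medians of 6.43 to 6.60, 5.82 to 6.15 and 6.26 to 6.62, and levels were compared only within an experiment. Esr1 was lower in the knockouts than in littermates under vehicle, by 2.39 ± 0.19 (SE) on the log2 scale in Ex3aERKO (n = 2 and 2, limma with Benjamini-Hochberg adjustment, adjusted p = 1.8e-06) and by 1.21 ± 0.11 in ERaUtcKO (n = 3 and 3, limma, adjusted p = 3.66e-07). The epithelial marker Epcam (10.48 to 14.09) and the smooth muscle marker Myh11 (14.66 to 17.22) were bright on all 68 arrays. Some arrays stood apart by transcripts of other tissues. The mean over 10 liver genes was above 8 on 9 arrays: all 3 C57Bl6 vehicle arrays (11.59, 9.97 and 9.41), 1 C57Bl6 array of E2 at 2 h, 2 vehicle arrays of the ERaUtcKO littermates, 2 ERaUtcKO vehicle arrays and 1 ERaUtcKO array of IGF1 at 2 h (12.27). It lay between 5.32 and 7.995 on the other 59 arrays. The mean over 9 keratinocyte genes of stratified squamous epithelium was above 8 on 8 arrays of the knockout experiments. Among the 26 comparisons followed for their dependence on processing, calls that changed without these arrays are given with both values.

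**Figure D1:**
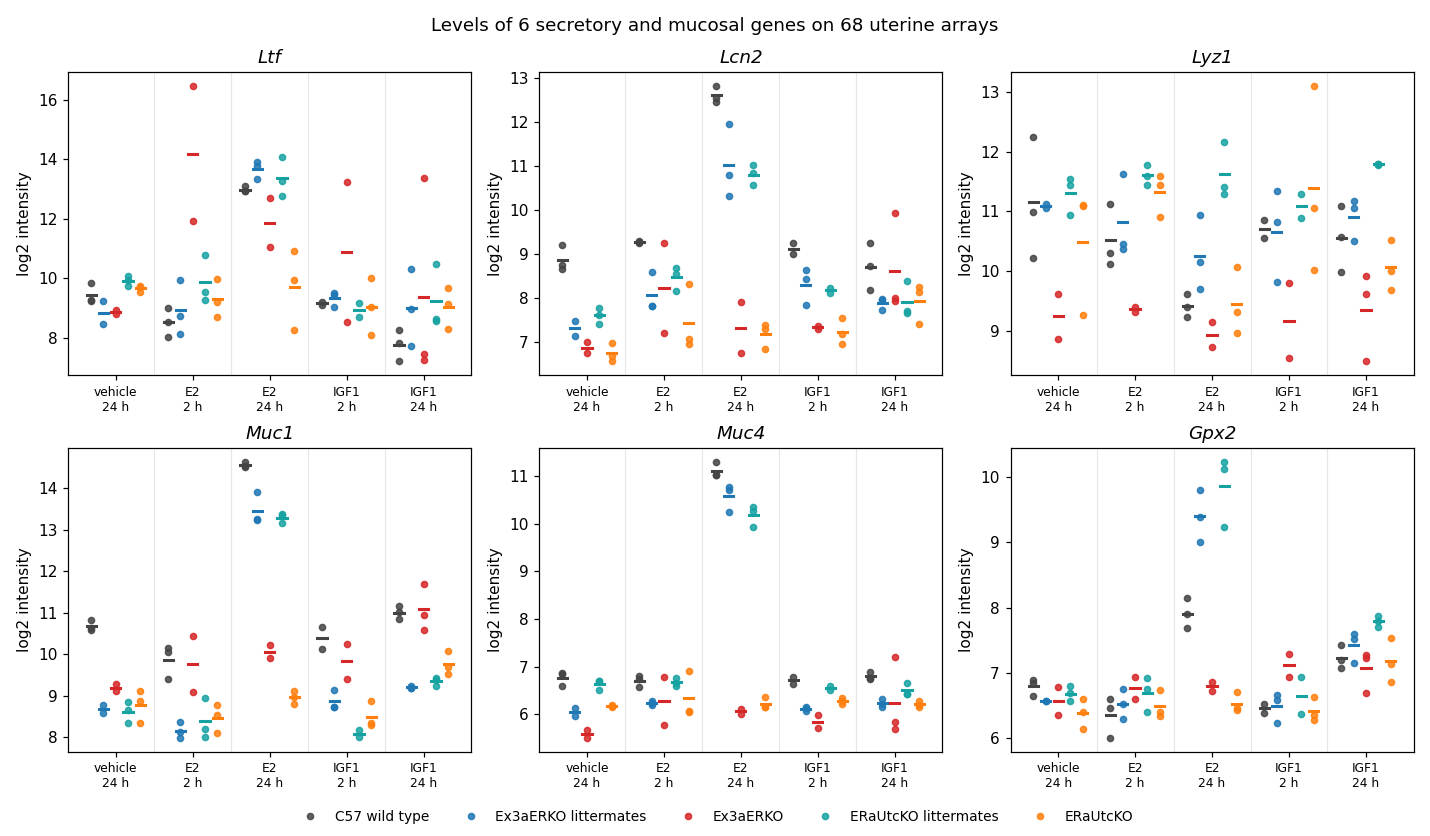
Log2 intensity of the 6 measured members (vertical axis) by treatment and time (horizontal axis), in mice of each line; each point is 1 array and each bar a group mean. Ltf, Lcn2, Muc1, Muc4 and Gpx2 stand highest after E2 for 24 h in the 3 wild-type series, and the points of Ltf in Ex3aERKO are spread from 7.24 to 16.48.

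E2 at 24 h raised 5 of the 6 members in wild-type uterus. Lyz1 was called lower in the pooled test, but within single series only in C57Bl6. Over the 3 wild-type series together, 9 E2 arrays against 8 vehicle arrays with the mouse series as a covariate, Muc1 rose 21.6-fold, Muc4 17.5-fold, Ltf 14.6-fold, Lcn2 11.6-fold and Gpx2 5.08-fold. The median difference over the 6 members was 3.70, against -0.07 over all 30142 genes. A member was called changed where limma gave a Benjamini-Hochberg adjusted p under 0.05 over all genes; by that rule 56.2% of all genes were called in this comparison, 24.5% as higher and 31.7% as lower. In bulk tissue, fewer or more cells of a type and less or more RNA per cell cannot be told apart.

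Ltf, the iron-binding lactotransferrin, was at 9.25, 9.84 and 9.22 on the C57Bl6 vehicle arrays and at 12.94, 13.09 and 12.92 after E2 for 24 h. The Ex3aERKO littermates went from 8.44 and 9.22 to 13.33, 13.90 and 13.76, and the ERaUtcKO littermates from 9.73, 10.08 and 9.93 to 14.07, 12.76 and 13.27. No E2 array overlapped a vehicle array in any of the 3 series. The difference was 3.87 ± 0.32 (SE, limma, adjusted p = 2.23e-13).

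Lcn2, the siderophore-binding lipocalin, rose in the same comparison by 3.53 ± 0.18 (limma, adjusted p = 2.75e-19). Its vehicle values were 8.74, 9.19 and 8.65 in C57Bl6, 7.13 and 7.47 in the Ex3aERKO littermates and 7.40, 7.77 and 7.61 in the ERaUtcKO littermates. After E2 for 24 h they were 12.44, 12.82 and 12.55, then 10.79, 10.32 and 11.95, then 10.83, 10.55 and 11.01 in the same order. Every E2 array lay above every vehicle array of its series.

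Lyz1, the lysozyme typical of intestinal Paneth cells, was the member that went down, and it did so unevenly. In C57Bl6 it was at 10.99, 10.22 and 12.24 under vehicle and at 9.24, 9.63 and 9.41 after E2 for 24 h. In the ERaUtcKO littermates it was at 10.94, 11.44 and 11.55 under vehicle and at 12.16, 11.30 and 11.41 after E2, so these groups overlapped. Over the 3 series the difference was -0.74 ± 0.26 (limma, adjusted p = 0.0152). The call rests on few arrays: without the highest C57Bl6 vehicle array the difference was -0.52 (adjusted p = 0.0637), and without the 9 arrays high in liver genes it was -0.64 (adjusted p = 0.0991). Lyz2, the lysozyme of macrophages, lies 5522 bases from Lyz1 on chromosome 10 and moved the same way in C57Bl6, from 15.92, 15.02 and 16.67 to 14.03, 14.29 and 14.11. Whether the Lyz1 probe set also reads Lyz2 transcripts was not tested, so the Lyz1 values are uncertain.

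The mucins had the smallest standard errors of the 6 members in this pooled comparison. Muc1 was at 10.57, 10.63 and 10.83 in C57Bl6 under vehicle and at 14.52, 14.63 and 14.53 after E2 for 24 h, and in the ERaUtcKO littermates it went from 8.34, 8.65 and 8.84 to 13.35, 13.16 and 13.37. The Ex3aERKO littermates held 8.78 and 8.58 under vehicle and 13.91, 13.25 and 13.23 after E2. The pooled difference was 4.43 ± 0.15 (limma, adjusted p = 5.96e-25). Muc4 was at 6.58, 6.85 and 6.86 in C57Bl6 under vehicle and at 11.03, 11.30 and 11.04 after E2, with 5.95 and 6.12 against 10.26, 10.71 and 10.78 in the Ex3aERKO littermates. In the ERaUtcKO littermates Muc4 rose from 6.51, 6.69 and 6.69 to 10.36, 9.93 and 10.27. The pooled Muc4 difference was 4.13 ± 0.10 (limma, adjusted p = 7.44e-29), and neither mucin had an E2 array that overlapped a vehicle array. Under vehicle Muc4 stood near the array medians, with means of 6.76 in C57Bl6 and 6.03 and 6.63 in the Ex3aERKO and ERaUtcKO littermates. The array medians of these experiments were 6.43 to 6.60, 5.82 to 6.15 and 6.26 to 6.62. Whether a dim probe set narrows the spread of Muc4 was not tested.

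Gpx2, the glutathione-dependent peroxidase, rose by 2.35 ± 0.20 (limma, adjusted p = 3.8e-13), and by unequal amounts in the 3 series. In C57Bl6 it went from 6.65, 6.84 and 6.90 to 7.68, 8.14 and 7.90. In the Ex3aERKO littermates it went from 6.58 and 6.58 to 9.39, 9.79 and 9.0, and in the ERaUtcKO littermates from 6.57, 6.69 and 6.80 to 10.11, 9.23 and 10.22. The E2 and vehicle groups did not overlap in any of the 3 series.

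The responses to E2 at 24 h were also set against each other between the 3 wild-type series, by a test of the difference of differences. Gpx2 responded less in C57Bl6 than in the Ex3aERKO littermates (-1.70 ± 0.32, limma, adjusted p = 0.0014) and than in the ERaUtcKO littermates (-2.06 ± 0.30, adjusted p = 9.17e-05). Muc4 responded more in C57Bl6 (0.80 ± 0.16, adjusted p = 0.00162) and in the Ex3aERKO littermates (0.99 ± 0.17, adjusted p = 0.00767) than in the ERaUtcKO littermates. Muc1 responded less in C57Bl6 than in the ERaUtcKO littermates (-0.80 ± 0.28, adjusted p = 0.0474). The Lyz1 differences, -1.73 in C57Bl6 and 0.31 in the ERaUtcKO littermates, were apart by -2.04 ± 0.57 (adjusted p = 0.0149). Ltf and Lcn2 showed no such difference that passed the test. Of all genes, 4.25% were called between C57Bl6 and the Ex3aERKO littermates, 18.4% between C57Bl6 and the ERaUtcKO littermates, and 1.52% between the 2 sets of littermates. All 3 C57Bl6 vehicle arrays and 2 vehicle arrays of the ERaUtcKO littermates were among those high in liver genes, and their part in these differences was not tested for C57Bl6, where no vehicle array is left without them.

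**Figure D2:**
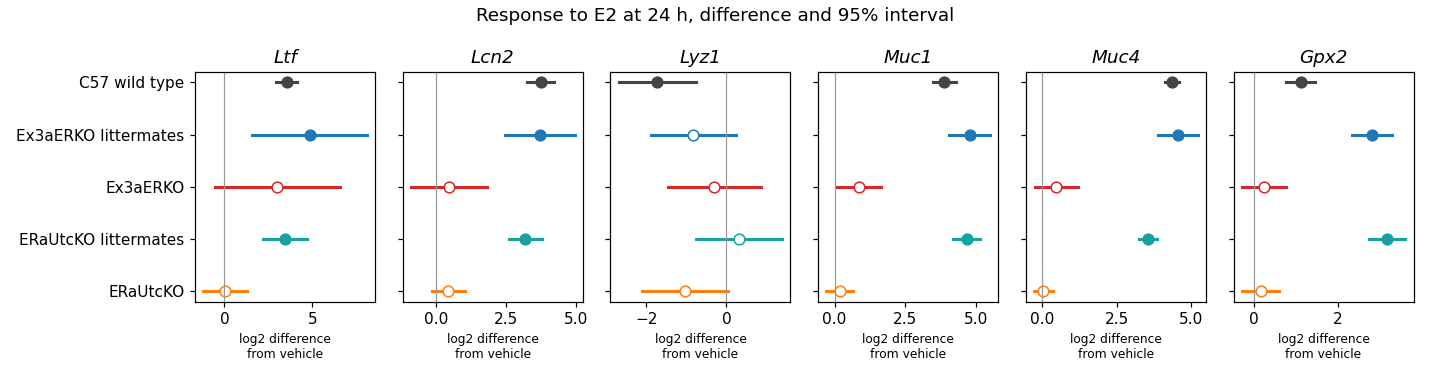
Difference in log2 intensity between E2 at 24 h and vehicle (horizontal axis) for each member, in the 5 kinds of mice fitted within their own experiment; points are differences, bars 95% intervals, filled points are called by limma at an adjusted p under 0.05 and open points are not. Ltf, Lcn2, Muc1, Muc4 and Gpx2 are called in all 3 wild-type series (36.3%, 28.9% and 54.6% of all genes called in C57Bl6, the Ex3aERKO littermates and the ERaUtcKO littermates) and in neither knockout (0% in both), and the interval of Ltf in Ex3aERKO runs from -0.55 to 6.58.

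At 2 h of E2, 2 members differed from vehicle, each by less than 1 log2 unit. After E2 for 2 h, Lcn2 was higher by 0.65 ± 0.18 (limma, adjusted p = 0.00308) and Muc1 lower by 0.55 ± 0.15 (difference -0.55, adjusted p = 0.00199) in the 9 wild-type arrays against 8 vehicle arrays; 40% of all genes were called. Lcn2 was at 9.27, 9.28 and 9.23 at 2 h in C57Bl6, at 7.80, 8.58 and 7.81 in the Ex3aERKO littermates and at 8.54, 8.67 and 8.16 in the ERaUtcKO littermates, above the vehicle arrays of its own series in each case. Muc1 was at 10.14, 10.04 and 9.40 in C57Bl6, below all 3 of its vehicle arrays, at 7.98, 8.11 and 8.35 in the Ex3aERKO littermates, also below vehicle, and at 8.94, 8.19 and 8.0 in the ERaUtcKO littermates, where it overlapped vehicle. Without the arrays high in liver genes the Muc1 difference was -0.41 (adjusted p = 0.132), which left 1 member called. Ltf differed by -0.37 ± 0.32 (limma, adjusted p = 0.395), Muc4 by 0.04, Gpx2 by -0.18 and Lyz1 by -0.20, and none of the 4 was called. From 2 h to 24 h of E2, Muc1 rose by 4.98 ± 0.14, Ltf by 4.24 ± 0.31, Muc4 by 4.10 ± 0.10, Lcn2 by 2.88 ± 0.18 and Gpx2 by 2.52 ± 0.19 (9 arrays each, limma, all 5 called, with 51.2% of all genes called and 27.1% as higher). Lyz1 differed by -0.54 between these times (adjusted p = 0.0716), and by -0.79 without the arrays high in squamous genes (adjusted p = 0.0322). Greb1, a direct target of the receptor, was up by 4.88 at 2 h and by 0.57 at 24 h on the same arrays.

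IGF1 at 24 h changed 3 members in wild-type uterus, each by less than 1 log2 unit. Gpx2 rose by 0.78 ± 0.20 (limma, adjusted p = 0.00161) and Muc1 by 0.51 ± 0.15 (adjusted p = 0.00472) over 9 IGF1 and 8 vehicle arrays, and Ltf fell by 0.81 ± 0.32 on the log2 scale (adjusted p = 0.0399); 40.9% of all genes were called. The median over the 6 members was 0.11, against -0.06 over all genes. Lcn2 differed by 0.22 ± 0.18 (adjusted p = 0.349), Muc4 by 0.01 ± 0.10 (adjusted p = 0.947, 95% interval -0.20 to 0.22) and Lyz1 by -0.09 ± 0.26 (adjusted p = 0.8).

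For Gpx2, the IGF1 arrays at 24 h read 7.20, 7.43 and 7.07 in C57Bl6, 7.6, 7.15 and 7.52 in the Ex3aERKO littermates and 7.70, 7.79 and 7.87 in the ERaUtcKO littermates. Each lay above all vehicle arrays of its own series, whose values were given with E2. Muc1 after IGF1 was at 10.84, 11.01 and 11.16 in C57Bl6, at 9.19, 9.23 and 9.17 in the Ex3aERKO littermates and at 9.38, 9.23 and 9.43 in the ERaUtcKO littermates, above the vehicle arrays of its own series each time. Within single series, Muc1 was called only in the ERaUtcKO littermates (0.74 ± 0.23, limma, adjusted p = 0.0125, with 43.5% of all genes called). Gpx2 was called in the ERaUtcKO littermates (1.10 ± 0.21, adjusted p = 0.000323) and in the Ex3aERKO littermates (0.85 ± 0.23, adjusted p = 0.0381, with 5.37% of all genes called).

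The lower Ltf came mostly from C57Bl6. There Ltf was at 8.25, 7.81 and 7.20 after IGF1 for 24 h, below all 3 vehicle arrays, and fell by 1.68 ± 0.28 (limma within C57Bl6, adjusted p = 0.000734, with 25.9% of all genes called). In the Ex3aERKO littermates it was at 8.96, 10.30 and 7.72 and in the ERaUtcKO littermates at 10.49, 8.56 and 8.63, overlapping vehicle in both. Without the 9 arrays high in liver genes, which include every C57Bl6 vehicle array, the pooled difference was -0.35 ± 0.46 (adjusted p = 0.647). The call was also lost when any of 12 single arrays was left out, with differences of -0.83 to -0.67 and adjusted p of 0.0521 to 0.0923: each vehicle array of C57Bl6 and of the ERaUtcKO littermates, each C57Bl6 array of IGF1 at 24 h, replicates 2 and 3 of IGF1 at 24 h in the ERaUtcKO littermates, and replicate 3 in the Ex3aERKO littermates.

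IGF1 at 2 h changed 1 member, Lcn2, which rose by 0.61 ± 0.19 (7 against 8 arrays, limma, adjusted p = 0.0109, with 35.9% of all genes called). Its values were 9.23 and 9.0 in C57Bl6, 8.43, 8.62 and 7.84 in the Ex3aERKO littermates and 8.11 and 8.22 in the ERaUtcKO littermates. They overlapped vehicle in C57Bl6 and lay above it in both sets of littermates. With 1 fit over all 68 arrays the adjusted p was 0.0622 and no member was called.

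Set directly against each other at 24 h, E2 gave higher levels than IGF1 for 5 members in wild-type uterus. The difference was 4.68 ± 0.31 for Ltf, 4.12 ± 0.10 for Muc4, 3.92 ± 0.14 for Muc1, 3.32 ± 0.18 for Lcn2 and 1.57 ± 0.19 for Gpx2 (9 arrays each, limma, all 5 called, with 28.1% of all genes called and 15.3% called as higher). Lyz1 differed by -0.65 ± 0.25 (limma, adjusted p = 0.0516), and it was called without any of 5 single arrays (-0.79 to -0.70), without the arrays high in squamous genes (-0.86, adjusted p = 0.0465) and without those high in liver genes (-0.65, adjusted p = 0.0213). Both comparisons with vehicle share the same 8 vehicle arrays, and this one uses none of them.

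**Figure D3:**
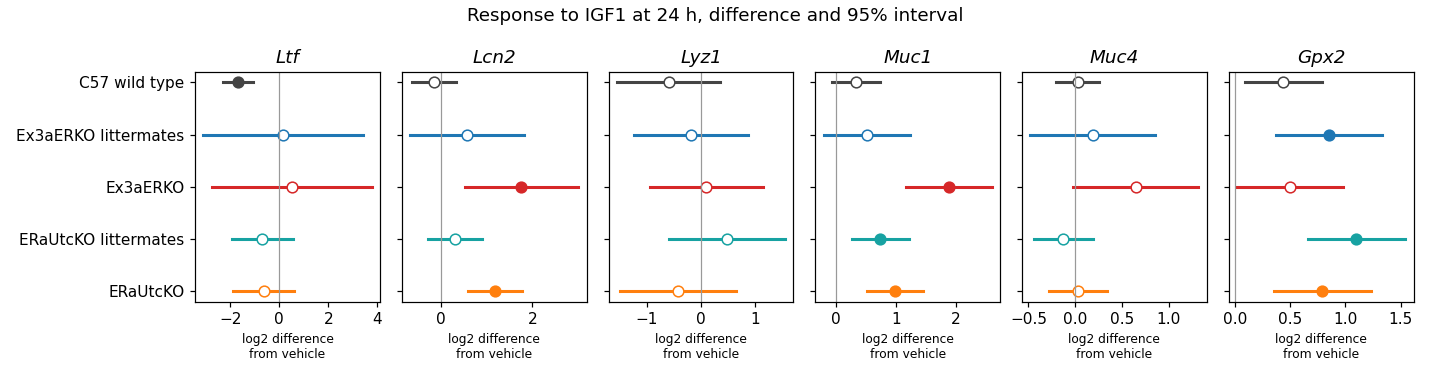
Difference in log2 intensity between IGF1 at 24 h and vehicle (horizontal axis) for each member in the 5 kinds of mice, drawn as for E2: points are differences, bars 95% intervals, filled points are called and open points are not. Muc1 is called in both knockouts and Lcn2 too, while Muc4 is called in none of the 5. Of all genes, 25.9% are called in C57Bl6, 5.37% in the Ex3aERKO littermates and 43.5% in the ERaUtcKO littermates. The shares are 18.6% in Ex3aERKO and 32.4% in ERaUtcKO.

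In uterus of Esr1-null Ex3aERKO mice, no member was called after E2 for 24 h, and 4 of the 5 members raised in wild type responded less than in littermates. The difference of responses was -4.07 ± 0.47 for Muc4 (limma interaction, adjusted p = 2.09e-05), -3.91 ± 0.51 for Muc1 (adjusted p = 5.02e-05), -3.26 ± 0.88 for Lcn2 (adjusted p = 0.0149) and -2.59 ± 0.34 for Gpx2 (adjusted p = 5.63e-05), with 16.8% of all genes called and 10.5% as lower. In the knockout alone, limma called 0 of 30142 genes at this time (0%), with 4166 at an unadjusted p under 0.05, from 2 arrays a group. Muc4 was at 5.50 and 5.66 under vehicle and at 6.01 and 6.10 after E2 (difference 0.47 ± 0.35, adjusted p = 0.582). Muc1 was at 9.10 and 9.28, then at 10.21 and 9.91 (0.87 ± 0.38, adjusted p = 0.307). These small shifts did not pass the test, and with 2 arrays a group the order of the arrays adds little to it.

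Lcn2 in Ex3aERKO was at 6.73 and 6.98 under vehicle and at 7.89 and 6.74 after E2 for 24 h, and Gpx2 was at 6.36 and 6.78, then at 6.86 and 6.73. Both overlapped vehicle. The interaction of Lcn2 rests on few arrays: it was -2.69 (limma, adjusted p = 0.0798) without E2 replicate 3 of the knockout, -3.14 (adjusted p = 0.0537) without vehicle replicate 3 of the knockout and -3.09 (adjusted p = 0.0541) without vehicle replicate 2 of the littermates. Lyz1 was at 8.88 and 9.62 under vehicle and at 9.15 and 8.74 after E2, below the littermates' 9.70, 10.15 and 10.94. At 24 h of E2 it was lower than in littermates by 1.32 ± 0.50 (difference -1.32, limma, adjusted p = 0.0434, with 41.6% of all genes called), and without the arrays high in squamous genes the difference was -0.75 (adjusted p = 0.356). It was -1.22 (adjusted p = 0.0916) with replicate number as a block, -1.0 (adjusted p = 0.13) after quantile normalization and not called with 1 fit over 68 arrays (adjusted p = 0.0504). Leaving out any of 4 single E2 arrays also ended that call: replicate 2 (-1.37, adjusted p = 0.0651) or 3 (-0.98, adjusted p = 0.162) of the littermates, or replicate 1 (-1.52, adjusted p = 0.0848) or 3 (-1.11, adjusted p = 0.211) of the knockout.

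Ltf in Ex3aERKO was spread over a wide range between arrays of the same group. Under vehicle it was at 8.93 and 8.78, after E2 for 2 h at 16.48 and 11.91, and after E2 for 24 h at 12.70 and 11.04. After IGF1 it was at 13.25 and 8.52 at 2 h and at 7.24, 13.38 and 7.45 at 24 h. Every E2 array lay above both vehicle arrays, while the IGF1 groups each held 1 array above 13 and the rest below 9. The difference was 5.34 ± 1.70 at 2 h of E2 (limma, adjusted p = 0.371, with 0.149% of all genes called) and 3.01 ± 1.70 at 24 h (adjusted p = 0.449), and the interaction at 24 h was -1.82 ± 2.30 (adjusted p = 0.636, 95% interval -6.65 to 3.00). At this spread, an Ltf response equal to that of littermates and no response could not be distinguished. Against littermates at 2 h of E2, Ltf was higher by 5.28 ± 1.55 (limma, adjusted p = 0.0191) and Muc1 by 1.61 ± 0.34 (adjusted p = 0.0018). Lyz1 was lower (-1.45 ± 0.50, adjusted p = 0.0481), with 20.7% of all genes called. These calls rest on 2 knockout arrays, and this comparison with littermates was not among those planned. The array with Ltf at 16.48 is among those high in squamous genes, and values of this comparison without it are not given. The interaction of Ltf at 2 h of E2 was 5.25 ± 2.30 (adjusted p = 0.195, with 9.43% of all genes called). With 1 fit over all 68 arrays, Ltf was called after E2 for 2 h in Ex3aERKO (5.34, adjusted p = 0.0108) and in the interaction (adjusted p = 0.0195).

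Squamous genes moved with these Ltf values on some arrays. The mean over the 9 measured keratinocyte genes was 5.78 and 5.75 on the Ex3aERKO vehicle arrays, 8.13 and 6.08 after E2 for 2 h, 6.38 and 6.33 after E2 for 24 h, 8.55 and 5.92 after IGF1 for 2 h and 5.82, 6.70 and 5.66 after IGF1 for 24 h. Krt5, which defines basal keratinocytes, was at 6.35 and 6.51 under vehicle, at 12.85 and 7.6 after E2 for 2 h and at 14.61 and 7.30 after IGF1 for 2 h. The array with Ltf at 13.38 after IGF1 for 24 h also had the highest mean over 12 neutrophil genes in its group, 7.05 against 5.92 and 6.04, with S100a8 at 15 against 10.31 and 10.82, and its Lcn2 was at 9.93. The granule genes Elane and Mpo were low on all 68 arrays, at 4.05 to 5.16 and 4.40 to 5.35. Ngp, at 4.17 to 6.76, and Camp, at 4.98 to 6.84, also stayed low. Over the same arrays S100a9 ran from 5.75 to 15.02 and Ly6g from 5.12 to 8.28. Neutrophil number was not tested from these genes. In the littermates, Ltf after E2 for 24 h was at 13.33, 13.90 and 13.76 where the squamous mean was 5.83, 8.74 and 8.17, so Ltf was high also on the array with a low squamous mean. Without the 8 arrays high in squamous genes, the wild-type response to E2 at 24 h was 3.97 for Ltf, 3.64 for Lcn2, 4.40 for Muc1, 4.20 for Muc4 and 2.05 for Gpx2, all still called. The part of squamous cells or of neutrophils in the Ex3aERKO values of Ltf was not tested.

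**Figure D4:**
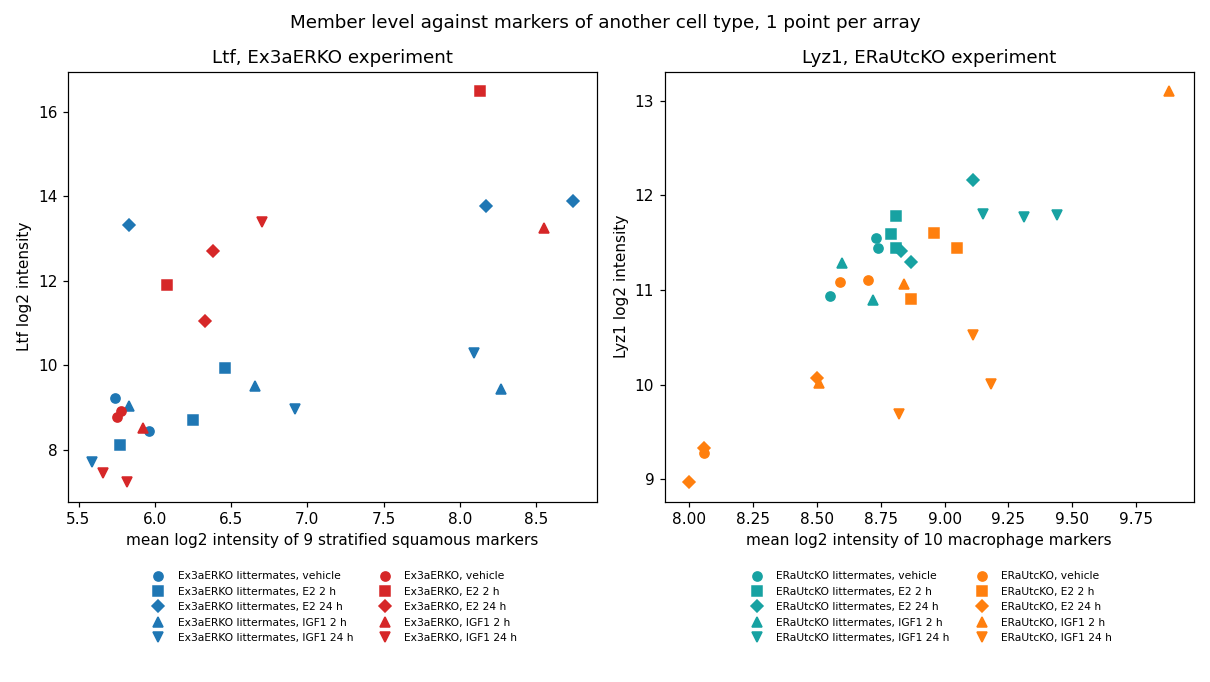
Left, log2 intensity of Ltf against the mean log2 intensity of 9 stratified squamous genes on each array of the Ex3aERKO experiment; right, log2 intensity of Lyz1 against the mean of 10 macrophage genes, of which Lyz2 is 1, on each array of the ERaUtcKO experiment. Symbols give the treatment and colours the mice; the Ex3aERKO array with Ltf at 16.48 has a squamous mean of 8.13, and the ERaUtcKO array with Lyz1 at 13.10 has the highest macrophage mean, 9.88.

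In ERaUtcKO uterus, where Esr1 was removed from cells that express the progesterone receptor, no member was called after E2 for 24 h and all 5 members raised in wild type responded less than in littermates. The difference of responses was -4.50 ± 0.32 for Muc1 (limma interaction, adjusted p = 1.38e-09), -3.52 ± 0.21 for Muc4 (adjusted p = 2.58e-10), -3.41 ± 0.85 for Ltf (adjusted p = 0.00364), -3.02 ± 0.30 for Gpx2 (adjusted p = 9.59e-08) and -2.77 ± 0.40 for Lcn2 (adjusted p = 1.36e-05), with 32.9% of all genes called and 15.5% as lower. In this knockout alone limma also called 0 of 30142 genes (0%), with 1151 at an unadjusted p under 0.05. The receptor target Greb1 still moved at 2 h in ERaUtcKO, with means of 6.26 under vehicle, 7.93 after E2 for 2 h and 6.35 after E2 for 24 h. In Ex3aERKO its means were 5.55 under vehicle, 5.48 after E2 for 2 h and 6.03 after E2 for 24 h. The difference of Greb1 from vehicle at 24 h there was 0.48 ± 0.17 (limma, adjusted p = 0.204). Without the arrays high in liver genes, which leaves 1 vehicle array in each line and takes its spread from the other groups, the interaction of Ltf was -3.28 ± 1.28 (adjusted p = 0.117) and those of the other 4 members stayed called. With 1 fit over all 68 arrays the Ltf interaction was also not called (-3.41 ± 1.38, adjusted p = 0.0519).

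Muc4 in ERaUtcKO was at 6.15, 6.18 and 6.19 under vehicle and at 6.14, 6.14 and 6.35 after E2 for 24 h (difference 0.03 ± 0.15, 95% interval -0.28 to 0.35). Muc1 was at 8.34, 8.88 and 9.12, then at 8.80, 9.10 and 8.97 (0.18 ± 0.23, 95% interval -0.29 to 0.65). For both mucins the upper bound was far under the wild-type response. Lcn2 was at 6.68, 6.97 and 6.55, then at 6.83, 7.28 and 7.37 (0.43 ± 0.28), and Gpx2 at 6.15, 6.60 and 6.41, then at 6.71, 6.46 and 6.43 (0.15 ± 0.21). Ltf was at 9.54, 9.75 and 9.70 under vehicle and at 10.93, 9.93 and 8.26 after E2 (0.04 ± 0.60, 95% interval -1.20 to 1.28). Its E2 arrays fell on both sides of vehicle, and all lay under the littermates' lowest value of 12.76.

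Lyz1 differed from littermates after E2 for 24 h in ERaUtcKO, by -2.17 on the log2 scale (limma, adjusted p = 0.00149, n = 3 and 3), as did the other 5 members, with 46.4% of all genes called. It was at 11.09, 11.11 and 9.28 under vehicle and at 8.97, 10.07 and 9.33 after E2, a difference of -1.04 ± 0.52 that was not called. The vehicle array at 9.28 stood apart from the other 2, and without it the interaction was -1.96 (adjusted p = 0.0388) against -1.35 ± 0.74 (adjusted p = 0.163) with it. After IGF1 for 2 h Lyz1 was at 10.02, 11.06 and 13.10, and it was called higher (1.59, adjusted p = 0.0193) only without the array at 10.02, which was the one high in liver genes. The macrophage mean on the same arrays was 8.51, 8.84 and 9.88, against 8.59, 8.70 and 8.06 under vehicle and 8.0, 8.50 and 8.06 after E2 for 24 h. Lyz2, which is in that list, was at 14.47, 15.67 and 17.54 after IGF1 for 2 h. On these 9 arrays the lower Lyz1 values went with the lower macrophage means. As the means hold Lyz2, they may not be independent of Lyz1. After E2 for 2 h Lyz1 ran from 10.91 to 11.60 and the macrophage means from 8.87 to 9.05. After IGF1 for 24 h, however, Lyz1 was at 9.69, 10.01 and 10.53 where the means were 8.82, 9.18 and 9.11. The part of macrophage number in the Lyz1 values was not tested.

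IGF1 at 24 h still raised members in both knockouts, at levels well below those of E2 in wild type. In ERaUtcKO, Lcn2 rose by 1.18 ± 0.28 (limma, adjusted p = 0.00233), Muc1 by 0.98 ± 0.23 (adjusted p = 0.00161) and Gpx2 by 0.79 ± 0.21 (adjusted p = 0.00566), n = 3 and 3, with 32.4% of all genes called and 16.9% as higher. Their IGF1 arrays were at 8.13, 7.39 and 8.23 for Lcn2, 9.52, 9.69 and 10.08 for Muc1 and 6.87, 7.14 and 7.53 for Gpx2, with no overlap with vehicle. In Ex3aERKO, Muc1 rose by 1.89 ± 0.34 (3 against 2 arrays, limma, adjusted p = 0.000777), from 9.10 and 9.28 to 10.58, 11.70 and 10.95. Lcn2 there rose by 1.76 ± 0.59 (adjusted p = 0.0445), from 6.73 and 6.98 to 7.93, 9.93 and 7.98, with 18.6% of all genes called and 11.7% as higher.

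That Lcn2 call depends on single arrays: the difference was 1.10 (limma, adjusted p = 0.208) without the array at 9.93, 1.64 (adjusted p = 0.236) without vehicle replicate 2 and 1.89 (adjusted p = 0.121) without vehicle replicate 3. It was 1.72 (adjusted p = 0.0519) after quantile normalization and 1.67 (adjusted p = 0.0658) with replicate number as a block, and 1 member was then called in place of 2. Gpx2 in Ex3aERKO differed by 0.50 ± 0.23 (adjusted p = 0.155), with arrays at 6.70, 7.23 and 7.28, and Muc4 by 0.65 ± 0.32 (adjusted p = 0.19), with arrays at 5.68, 7.20 and 5.83. Ltf differed by 0.50 ± 1.55 (adjusted p = 0.894) in Ex3aERKO and by -0.64 ± 0.60 (adjusted p = 0.461) in ERaUtcKO, and Lyz1 by 0.10 and -0.42.

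No response to IGF1 at 24 h was shown to differ between a knockout and its littermates. The interaction was 1.37 ± 0.48 for Muc1 in Ex3aERKO (limma, adjusted p = 0.435, 95% interval 0.36 to 2.39) and 0.88 ± 0.40 for Lcn2 in ERaUtcKO (adjusted p = 0.414, 95% interval 0.04 to 1.71), and these intervals do not include 0 although neither passed the adjustment. For Gpx2 it was -0.35 ± 0.32 in Ex3aERKO and -0.31 ± 0.30 in ERaUtcKO. Of all genes, 0.0133% and 0.0498% were called for these interactions. Direct comparison with littermates after IGF1 for 24 h gave Muc1 higher in Ex3aERKO by 1.88 ± 0.31 (adjusted p = 0.000903) and Lyz1 lower by 1.56 ± 0.45 (difference -1.56, adjusted p = 0.0415), with 7.24% of all genes called. Within the knockouts, members raised by IGF1 stood above E2 at 24 h: Muc1 by 1.01 ± 0.34 in Ex3aERKO (E2 minus IGF1 -1.01, adjusted p = 0.0456, with 19.3% of all genes called), and in ERaUtcKO Muc1 (E2 minus IGF1 -0.80 ± 0.23, adjusted p = 0.00846), Lcn2 (-0.75 ± 0.28, adjusted p = 0.0483) and Gpx2 (-0.64 ± 0.21, adjusted p = 0.0243), with 30.3% of all genes called. In wild type the order was the opposite for these 3 members. These comparisons within knockouts were added after the levels had been seen.

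At 2 h no member was called in either knockout, with 0.149% of all genes called after E2 in Ex3aERKO, 15.7% after IGF1 in Ex3aERKO, 0.491% after E2 in ERaUtcKO and 29.3% after IGF1 in ERaUtcKO. Lcn2 differed by 0.70 after E2 (limma, adjusted p = 0.451) and by 0.49 after IGF1 (adjusted p = 0.235) in ERaUtcKO, and by 1.35 after E2 in Ex3aERKO (adjusted p = 0.733), where it was at 9.23 and 7.19. Against littermates, Lcn2 was lower in ERaUtcKO after E2 for 2 h (-1.03 ± 0.28, adjusted p = 0.00806, with 27.1% of all genes called), and no member differed by the test after IGF1 for 2 h in Ex3aERKO (3.35% of all genes called) or ERaUtcKO (6.18%). Under vehicle no member differed from littermates by the test in either line, with 2.96% and 4.17% of all genes called. The nearest were Lyz1 in Ex3aERKO (-1.85 ± 0.55, adjusted p = 0.0853) and Lcn2 in ERaUtcKO (-0.86, adjusted p = 0.0925).

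Cells that could carry these transcripts were followed by marker lists on the same arrays. Of 11 measured epithelial genes, 10 rose and none fell after E2 for 24 h in wild type (median 2.19, with 24.5% of all genes called higher and 31.7% lower), and in the knockouts, where 0% of all genes were called, none was. After IGF1 for 24 h, 4 of the 11 rose in wild type, 7 in ERaUtcKO and 4 in Ex3aERKO, with 40.9%, 32.4% and 18.6% of all genes called either way. Smooth muscle and stromal genes also rose after E2 for 24 h in wild type, 6 of 6 and 3 of 5 (medians 1.21 and 0.48). After IGF1 for 24 h, 6 of 6 and 5 of 5 rose in wild type (medians 1.35 and 0.57). The same numbers rose in ERaUtcKO, and 1 of 6 and 5 of 5 in Ex3aERKO. For E2 against IGF1 at 24 h in wild type, 28.1% of all genes were called. In that comparison 10 of 11 epithelial genes were higher and 0 lower (median 1.67). Of 10 macrophage genes 0 were higher and 5 lower, and of 12 neutrophil genes 1 was higher and 5 lower. There 0 of 6 smooth muscle genes were higher and 1 lower (median -0.2), and 1 of 5 stromal genes was higher and 1 lower (median -0.09). Of 5 adipocyte genes 2 fell after E2 for 24 h in wild type. The mean over the epithelial list went from 9.77 to 9.88 under vehicle to 11.44 to 11.59 after E2 in C57Bl6, so epithelial transcripts moved with Ltf, Lcn2, Muc1, Muc4 and Gpx2. The part of these cell types in the members' values was not tested. Of 12 neutrophil genes, 1 rose and 3 fell after E2 for 24 h in wild type, and of 10 macrophage genes none rose and 3 fell. Of 7 intestinal genes, which were included because Lyz1 and Gpx2 are also gut genes, none rose and 2 fell, and Vil1 stayed between 4.55 and 5.61 on all 68 arrays. Of 10 liver genes 9 fell, in the comparison whose vehicle arrays are high in liver transcripts, and of 9 squamous genes 5 rose and none fell.

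Genes that work with the members moved in part with them in wild-type uterus after E2 for 24 h, where 24.5% of all genes were called higher and 31.7% lower. Of 15 measured glutathione and NRF2 target genes, the group of Gpx2, 13 rose and 1 fell, with a median of 1.01 against -0.07 over all genes; Gsr, glutathione reductase, rose by 2.31 and the quinone reductase Nqo1 by 2.03, and Gstm1 fell by 0.73. This list responded less to E2 in the knockouts, with 8 of 15 genes called lower by the interaction in Ex3aERKO and 10 of 15 in ERaUtcKO, and none higher; 10.5% and 15.5% of all genes were called lower there. After IGF1 for 24 h, 9 of its genes rose and 3 fell in wild type, 5 rose and 1 fell in Ex3aERKO, and 10 rose and 1 fell in ERaUtcKO, where 40.9%, 18.6% and 32.4% of all genes were called either way.

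Of 10 other measured mucin genes, 1 rose and 7 fell after E2 for 24 h (median -0.24). The one that rose was Muc20, by 4.09, a size like that of Muc4, while Muc16 fell by 0.67 and Muc3a by 0.62. Of 14 other antimicrobial and secreted proteins 3 rose and 4 fell (median -0.09): the peptidoglycan-binding protein Pglyrp1 rose by 2.76 and the polymeric immunoglobulin receptor Pigr by 2.52, and Wfdc15b fell by 0.86 and Lyz2 by 0.81. Of 10 genes of iron handling 6 rose and 3 fell (median 0.36), with the transferrin receptor Tfrc up by 3.03 and the iron exporter Slc40a1 up by 1.40. Transferrin itself (Trf) fell by 2.02 and the hormone hepcidin (Hamp) by 1.66. Both are also liver products, and the liver list fell in the same comparison. The part of the vehicle arrays high in liver genes in these 2 falls was not tested.

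C3 was not analysed here, but 14 other complement genes were, and 3 of them rose and 9 fell after E2 for 24 h (median -0.28). Complement factor B (Cfb) rose by 3.68 and clusterin (Clu) by 2.33, and the inhibitor Serping1 fell by 1.53 and the protease C1ra by 1.22. Vehicle arrays high in liver genes are in this comparison too, and their part in the changes of complement genes was not tested. Of 15 receptors and partners of the members 4 rose and 6 fell (median -0.15), among them the lipopolysaccharide co-receptor Cd14, up by 1.30, the ErbB2 partner Erbb3, up by 1.14, the lipopolysaccharide receptor Tlr4 (difference -0.88) and the complement receptor Cr2 (difference -0.78). In either knockout after E2 for 24 h no gene of these 6 lists was called, as was no gene at all (0% of 30142).

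Ordered by mean within an experiment, E2 at 24 h in wild type was the highest group for Ltf, Lcn2, Muc1, Muc4 and Gpx2, except that Ltf in the Ex3aERKO experiment was highest in Ex3aERKO after E2 for 2 h, at a mean of 14.19 ± 3.23 (SD, n = 2). Below the top group most neighbours could not be separated. Of the 9 neighbouring pairs in the ERaUtcKO experiment, the arrays overlapped in 8 for Ltf, Lcn2 and Muc4, 9 for Lyz1, 6 for Muc1 and 7 for Gpx2. Of the 4 pairs in C57Bl6, they overlapped in 1 for Ltf and Gpx2, 2 for Muc1 and 3 for Lcn2, Muc4 and Lyz1. The median SD within a group was 0.64 for Ltf, 0.47 for Lyz1, 0.29 for Lcn2, 0.24 for Muc1, 0.23 for Gpx2 and 0.12 for Muc4. The largest SD was 3.48, for Ltf in Ex3aERKO after IGF1 for 24 h, and Ex3aERKO groups also held the largest SD of Lcn2, Muc1 and Muc4.

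The 25 group means were each centred on the mean of the groups of the same experiment. Across these 25 values, Lcn2 and Muc4 went together with a Pearson r of 0.95. Muc1 went with Muc4 and with Gpx2 at 0.90 each, and Ltf with Muc1 and Muc4 at 0.76 each. Lyz1 correlated with the other 5 members at -0.27 to 0.11. Among 7665 genes whose group means spanned at least 1, the closest to Muc4 were Gsdmc2 (r = 0.993), Muc20 (0.986) and Gsdmc3 (0.984). Those closest to Muc1 were Pls1 (0.980), Rab25 (0.976) and Stap2 (0.971), and those closest to Lcn2 were Ckmt1 (0.958), Gmds (0.955) and Sprr1a (0.951). Ltf was followed by Alcam (0.893), Cd14 (0.879) and Cfb (0.873), with lower values than the mucins had. Lyz1 was followed by Lyz2 (0.978), Ctss (0.895) and Cd53 (0.872), of which Lyz2 and the lysosomal protease Ctss are known from macrophages. Gpx2 was followed by its pseudogene Gpx2-ps1 (0.972), Cdc25c (0.968) and Lrr1 (0.959); whether the probe sets of Gpx2 and the pseudogene read each other's transcripts was not tested. Groups of an experiment share their mouse line and groups of the 3 experiments share treatments, so these correlations describe 25 points and are given without a test.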

How the data were processed

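The deposited table holds log2 intensities of 72688 probe sets on 68 arrays of mouse uterus RNA; the authors' background correction, normalization and summarization are not given in the sources used here, and the deposited log2 values were used as they are. Of these probe sets, 30604 are annotated to 1 gene, 2146 to several and 39938 to none in GEO's platform annotation. The brightest probe set by mean over 68 arrays was kept for each of 30142 genes. limma 3.58.1 (lmFit and eBayes, under R 4.3.3) was run on all genes, with Benjamini-Hochberg adjustment and a threshold of 0.05. Wild-type comparisons pooled 42 arrays with mouse series as a covariate (35 residual degrees of freedom); knockout comparisons, interactions and comparisons with littermates used 1 mean per group within an experiment (15 and 19 residual degrees of freedom). The number of arrays limits the precision.

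The members, gene lists, marker lists and motifs were chosen with earlier results of these data known. The genes named from a list were the 2 with the largest rise and the 2 with the largest fall among those called in wild type after E2 for 24 h; genes of like pattern were the 3 with the highest r. No arrays were identical; the highest correlation between any 2 was 0.9968. On simulated data, known changes were put into a small part of 30142 genes, with independent noise around 1 mean per gene. Of the genes changed by 1 log2 unit, the pooled wild-type fit called 98.5% after E2 for 24 h. The E2 interactions at 24 h called 26.9% in Ex3aERKO and 76.1% in ERaUtcKO. Far more genes were called in the data themselves, so these shares are not the power of the tests reported here. Alternatives were array median centring, quantile normalization, leaving out dim genes, trended and robust moderation, a replicate block, 1 fit over 68 arrays and leaving out each array in turn. Leaving out arrays high in squamous or liver genes was chosen after seeing the data. Protein sequences were not used here.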

Additional observations from a re-analysis of the deposited data

Results flagged for a closer look

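The responses of members to E2 at 24 h differed between knockouts and littermates, or between the wild-type series, by a limma test of the difference itself with Benjamini-Hochberg adjustment over all genes. Between Ex3aERKO and littermates the difference was -4.07 for Muc4, -3.91 for Muc1, -3.26 for Lcn2 and -2.59 for Gpx2. Between ERaUtcKO and littermates it was -4.50 for Muc1, -3.52 for Muc4, -3.41 for Ltf, -3.02 for Gpx2 and -2.77 for Lcn2.

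Between wild-type series, Gpx2 differed by -1.70 for C57Bl6 minus the Ex3aERKO littermates and by -2.06 for C57Bl6 minus the ERaUtcKO littermates. C57Bl6 minus the ERaUtcKO littermates gave -0.80 for Muc1, 0.80 for Muc4 and -2.04 for Lyz1, and the Ex3aERKO littermates minus the ERaUtcKO littermates gave 0.99 for Muc4. Series and mice cannot be told apart in these 6, and Lyz1 in C57Bl6 rests in part on a vehicle array at 12.24 against 10.99 and 10.22.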

How the results depend on the processing

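Over 26 comparisons and 156 member differences, no called difference changed sign under any alternative. The count of members called in Ex3aERKO after IGF1 for 24 h was 1 in place of 2 under quantile normalization and with the replicate block. With 1 fit over all 68 arrays it was 0 in place of 1 for IGF1 at 2 h in wild type, and 1 in place of 0 for E2 at 2 h in Ex3aERKO and for its interaction. Without the arrays high in liver genes it was 1 in place of 2 for E2 at 2 h in wild type. Trended and robust moderation changed no call, the replicate block 2, median centring 2, the dim filter 1, quantile normalization 4, the fit over 68 arrays 7, and leaving out arrays high in liver genes 5 or in squamous genes 3. The cause of these changes was not tested.

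With single arrays left out, counts ran from 5 to 6 (E2 at 24 h in wild type against vehicle, 6 with all arrays, and against E2 at 2 h and IGF1 at 24 h, 5 with all), 2 to 3 (IGF1 at 24 h in wild type, 3), 1 to 2 (IGF1 at 24 h in Ex3aERKO, 2), 3 to 4 (interaction of E2 at 24 h in Ex3aERKO, 4), 5 to 6 (the same in ERaUtcKO, 5), 4 to 5 (Ex3aERKO against littermates after E2 for 24 h, 5), 0 to 1 (interaction of E2 at 2 h in Ex3aERKO, 0) and 0 to 1 (IGF1 at 2 h in ERaUtcKO, 0). Under median centring Ltf after IGF1 for 24 h in wild type was -0.68 (limma, adjusted p = 0.0973) and Lyz1 after E2 for 24 h -0.53 (adjusted p = 0.0918). Calls gained without 1 array and not given above were Muc1 in the Ex3aERKO interaction of E2 at 2 h (1.78, adjusted p = 0.0289, without E2 replicate 3) and Lyz1 in wild type for E2 at 24 h against 2 h (-0.63, adjusted p = 0.0411, without replicate 3 of the Ex3aERKO littermates at 24 h, and -0.69, adjusted p = 0.0184, without replicate 1 of the ERaUtcKO littermates).

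Replicate numbers did not pair the samples: same-numbered arrays had median correlations of deviations of -0.142 to 0.0138. Each measured member has 1 probe set, so a next-brightest probe set gave no value, and the differences between wild-type series that use C57Bl6 vehicle arrays could not be fitted without arrays high in liver genes. Of the 5 Ex3aERKO groups, 4 hold 2 arrays.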
